A study of Mus musculus with 2 samples.

Results

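The miR-99/100 family of the mouse comprises the loci Mir99a, Mir99b and Mir100, which were followed here through small RNA libraries of newborn forebrain. The 3 loci were found by Ensembl identifier, and all 3 had a row among the 1973 miRNA loci counted. MicroRNA sequencing counts the short RNAs that are cut from hairpin precursors and guide the repression of messenger RNAs. The libraries came from 2 single forebrains of strain B6NCrl mice at postnatal day 0, pup 3 and pup 1, with no treatment, mutation or transgene given in the labels. The sex was not collected, and both animals carry the same donor entry. There is a single group, so the results are levels, their variation from animal to animal (SD over n = 2 wherever a mean is given) and differences between these 2 libraries. Where an SD is printed it describes 2 animals only.

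The family is among the oldest miRNA families of animals. A miRNA finds its targets mainly through bases 2 to 8, the seed, and miR-99/100 miRNAs are known in human cells to repress the growth regulator MTOR, the receptor IGF1R and the chromatin remodeller SMARCA5. In vertebrates each member sits upstream of a let-7 gene, whose product restrains proliferation, and of a miR-125 gene, a relative of the worm lin-4. In the fly the corresponding 3 miRNAs are cut from 1 transcript.

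The mature 5′ products, which carry the family seed, show how little separates the 3 miRNAs. They are given as RefSeq lists them for build GRCm38.p6, 5′ to 3′, with the seed in capitals.
miR-99a-5p: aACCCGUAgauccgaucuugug
miR-100-5p: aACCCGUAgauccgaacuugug
miR-99b-5p: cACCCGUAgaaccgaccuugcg
Of 1679 mature names in the RefSeq table, 3 (0.179%) had this seed, and these were the 3 family members. Counted from the 5′ end, miR-100-5p differed from miR-99a-5p by the single substitution U16A, in which miR-99a-5p has the first base. The pair shared their first 15 and last 6 bases. From miR-99a-5p to miR-99b-5p there were 4 substitutions, A1C, U11A, U16C and U21C, all outside the seed. No other mature name came within 5 differences of a member over the bases compared.

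The opposite arms of the hairpins are shown because the locus counts do not separate the arms. Again bases 2 to 8 are in capitals.
miR-99a-3p: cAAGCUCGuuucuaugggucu
miR-99b-3p: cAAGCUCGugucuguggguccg
miR-100-3p: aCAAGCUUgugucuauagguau
On this arm miR-99a and miR-99b shared bases 2 to 8 and miR-100 did not. The hairpins of Mir99a and Mir100 follow with both mature arms in capitals.
Mir99a: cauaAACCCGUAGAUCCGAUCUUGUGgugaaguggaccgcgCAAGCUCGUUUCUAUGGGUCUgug
Mir100: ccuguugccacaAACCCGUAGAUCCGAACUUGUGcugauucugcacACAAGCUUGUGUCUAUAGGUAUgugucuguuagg
The arms were separated by 15 nt in the 65 nt hairpin of Mir99a and by 12 nt in the 80 nt hairpin of Mir100. The longest run that any member's hairpin shared with the hairpin of another counted locus was 16 nt, between Mir99a and Mir100. For Mir99b it was 11 nt, also with Mir100. The number of mismatches allowed in the alignment is not given in the sources used here, so how many reads of the abundant miR-99a with a misread base 16 were counted at Mir100 is unknown.

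The pup 3 library had 2427066 reads assigned to the strand of some miRNA locus, and the pup 1 library had 2742746. Shares are percents of these totals unless stated otherwise. Reads mapping to several places, 44.1% of all reads in pup 3 and 42.2% in pup 1, were assigned to no locus. Among markers of forebrain, the neuronal Mir137 had 23308 CPM (counts per 1e+06 assigned counts) in pup 3 and 28264 CPM in pup 1. Mir128-1, also abundant in neurons, had 11337 CPM in pup 3 and 10765 CPM in pup 1. The most abundant miRNA of neurons, miR-124, was nearly missing from the assigned counts: Mir124a-1, the highest of its 3 loci, had 8.65 CPM in pup 3 and 5.47 CPM in pup 1. All 3 of these hairpins share a run of 20 nt with another counted hairpin. The liver miRNA Mir122 had 63.0 CPM in pup 3 and 48.1 CPM in pup 1. Intervals cover counting error only, since PCR copies are counted as separate reads.

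The family held a large share of the assigned counts, and Mir99a supplied most of it. Mir99a (ENSMUSG00000065530.1) had 688713 counts, 28.4% of the total, in pup 3 and 699128 counts, 25.5%, in pup 1. Mir100 (ENSMUSG00000093011.1) had 84586 counts, 3.49%, in pup 3 and 81378 counts, 2.97%, in pup 1. Mir99b (ENSMUSG00000065396.1) had 55354 counts, 2.28%, in pup 3 and 57130 counts, 2.08%, in pup 1. In both animals the order was Mir99a, Mir100, Mir99b, and no range of a paralog overlapped that of another. The 3 loci together held 34.1% of the counts in pup 3 and 30.5% in pup 1, a mean of 32.3% ± 2.55 (SD, n = 2). The 95% interval, exact by Clopper and Pearson's method, was 34.1 to 34.2% for pup 3 and 30.5 to 30.6% for pup 1, without overlap. These intervals take each read as independent and are too narrow where PCR copies are counted. With a single library per animal, animal and library preparation cannot be told apart.

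The paralogs kept nearly the same proportions in the 2 animals. Mir99a made up 83.1% of the family's counts in pup 3 (exact interval 83.0 to 83.2%) and 83.5% in pup 1 (83.4 to 83.5%). Mir100 made up 10.2% in pup 3 and 9.72% in pup 1. Mir99b made up 6.68% in pup 3 and 6.82% in pup 1. Mir99a was counted 8.14 times as often as Mir100 in pup 3 and 8.59 times as often in pup 1, a mean log2 ratio of 3.06 ± 0.05. Against Mir99b it was counted 12.4 times as often in pup 3 and 12.2 times in pup 1 (3.63 ± 0.02 on the log2 scale). Mir100 stood 1.53-fold above Mir99b in pup 3 and 1.42-fold in pup 1 (0.56 ± 0.07). A mature miRNA is read whole, so these counts need no scaling to length, but library preparation recovers some RNA ends better than others. The ends of miR-99a-5p and miR-100-5p are identical, while miR-99b-5p differs at its first base and at base 21.

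Among all loci the paralogs stood at ranks 1, 5 and 10 by mean level of assigned counts. Reads mapping to several places entered no rank, so a locus whose mature product is also made elsewhere may stand too low. Mir99a was 4.20-fold above the second locus, Mirlet7g, in pup 3 and 3.92-fold above it in pup 1. Mir100 stood at rank 5 in pup 3 and 7 in pup 1. Its range overlapped that of Mir126a of blood vessel endothelium, the locus above it (3.56% in pup 3 and 3.05% in pup 1), although Mir100 was the lower of the pair within each library, at 0.980 of Mir126a in pup 3 and 0.972 in pup 1. It lay above the range of Mir149, the locus below (2.56% in pup 3 and 2.73% in pup 1). Mir99b stood at rank 8 in pup 3 and 10 in pup 1. Its range lay between those of Mir137 above (2.33% in pup 3 and 2.83% in pup 1) and Mir130a below (1.72% in pup 3 and 1.84% in pup 1) without overlap.

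**Figure D1:**
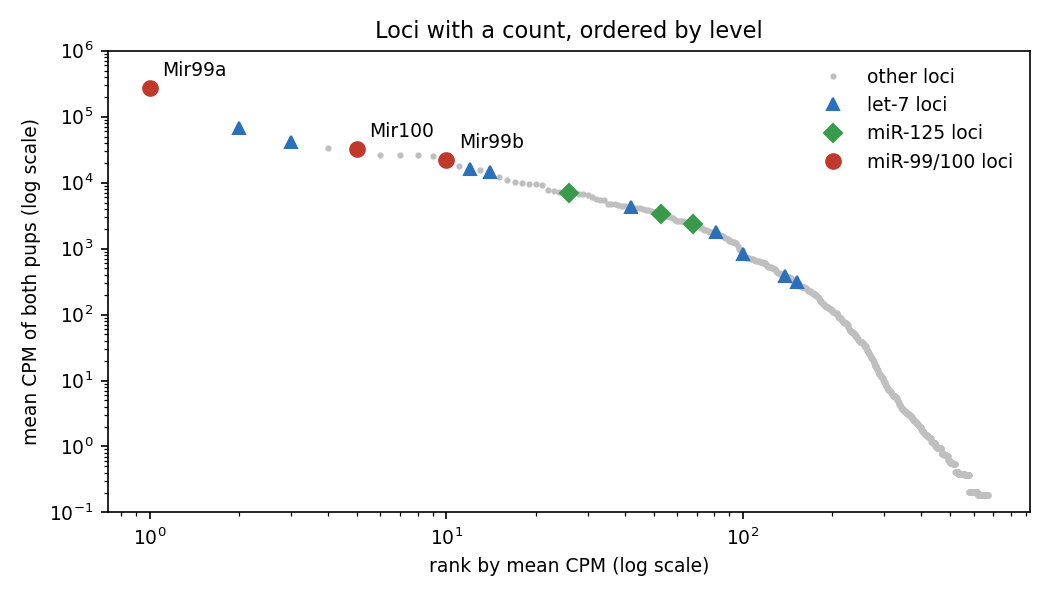
Mean CPM of both pups (log scale) against rank (log scale) for every locus with a count, 1 point per locus. Reads mapping to several places are not counted. The 3 miR-99/100 loci lie at ranks 1, 5 and 10, and let-7 loci hold ranks 2 and 3.

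No member had a count on the strand opposite its hairpin. The count there was 0 in both pups at all 3 loci. For Mir99a, a count of 0 allows up to 3 counts, or 0.00044% of its gene-strand counts in pup 3 and 0.00043% in pup 1. Over all loci, 98.1% of counts in pup 3 and 97.6% in pup 1 were on the gene strand.

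The 3 loci lie in 3 separate clusters, each on the plus strand of GRCm38 and inside an intron of a longer transcript. Mir99a lies on chromosome 16 (77598936 to 77599000), in an intron of 4 transcripts of its noncoding host Mir99ahg. Mirlet7c-1 starts 721 bp and Mir125b-2 starts 47337 bp downstream, in the same host. Mir100 lies on chromosome 9 (41531425 to 41531504), in an intron of 13 transcripts of the noncoding gene 3110039I08Rik, which RefSeq names Mir100hg. Its neighbours Mirlet7a-2 and Mir125b-1 start 5291 and 50501 bp downstream. Mir99b lies on chromosome 17 (17830188 to 17830257), in an intron of 2 transcripts of Spaca6, a gene that encodes a sperm protein needed for fertilization. Mirlet7e starts 164 bp and Mir125a 624 bp downstream, so this cluster is the most compact of the 3. The tables count miRNA loci, and no host transcript has a row, so host levels were not analysed here.

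The mature neighbours are shown because 2 of the 3 clusters make products that are also made elsewhere in the genome. Seeds are in capitals, and let-7a-5p is given as listed for Mirlet7a-1 on chromosome 13, whose hairpin shares a run of 23 nt with that of Mirlet7a-2.
let-7c-5p: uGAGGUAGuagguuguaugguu
let-7a-5p: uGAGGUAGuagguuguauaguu
let-7e-5p: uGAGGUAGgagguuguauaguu
miR-125b-5p: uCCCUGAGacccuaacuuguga
miR-125a-5p: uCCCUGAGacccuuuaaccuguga
RefSeq lists let-7c-5p at 2 loci, Mirlet7c-1 and Mirlet7c-2, and miR-125b-5p at 2 loci, Mir125b-1 and Mir125b-2. The hairpins of the 4 neighbours in the Mir99a and Mir100 clusters each shared a run of 23 or 24 nt with another counted hairpin, longer than the mature products. A full-length read of such a product matches several places, and reads of this kind were assigned to no locus. Mirlet7e and Mir125a of the Mir99b cluster shared no run of 20 nt, and neither did any of the 3 family members.

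In every cluster the miR-99/100 locus had more counts than either neighbour in both pups. In the Mir99b cluster no hairpin shares a run of 20 nt with another counted hairpin. Whether all reads of the 3 miRNAs of this cluster were placed was not tested. Mir99b had 22807 CPM in pup 3 and 20830 CPM in pup 1. Mir125a had 6879 CPM in pup 3 and 7237 CPM in pup 1, so that Mir99b stood 3.32-fold above it in pup 3 and 2.88-fold in pup 1. Mirlet7e has no row of its own. The counts on the strand opposite Gm25927, where it lies, were 4587 CPM in pup 3 and 4585 CPM in pup 1. Mir99b stood 4.97-fold above them in pup 3 and 4.54-fold in pup 1.

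In the other clusters the distances were larger. Mirlet7c-1 had 921 CPM in pup 3 and 708 CPM in pup 1, and Mir99a stood 308-fold above it in pup 3 and 360-fold in pup 1. Mir125b-2 had 2338 CPM in pup 3 and 2404 CPM in pup 1, and Mir99a stood 121-fold above it in pup 3 and 106-fold in pup 1. Mirlet7a-2 had 357 CPM in pup 3 and 257 CPM in pup 1, and Mir100 stood 97.6-fold above it in pup 3 and 116-fold in pup 1. Mir125b-1 had 3638 CPM in pup 3 and 3089 CPM in pup 1, and Mir100 stood 9.58-fold above it in pup 3 and 9.61-fold in pup 1. All 4 of these neighbours share a run with another hairpin, and the part of unassigned reads in these folds was not tested. Among 90 pairs of loci within 10 kb on a strand with at least 100 summed counts each, the median distance was 4.47-fold. Mir99a and Mirlet7c-1 were among the 3 pairs farthest apart, and Mir100 and Mirlet7a-2 among the 6 farthest. Of the 66 pairs in which neither hairpin shared a run, the median distance was 4.88-fold, with quartiles of 2.22 and 15.6, and the 3.09-fold mean distance of Mir99b and Mir125a lay between these quartiles. The 24 pairs in which at least 1 hairpin shared a run had a median of 3.08-fold, with quartiles of 1.60 and 19.9. They mix pairs in which both hairpins share a run with pairs in which only 1 does, and these were not separated.

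**Figure D2:**
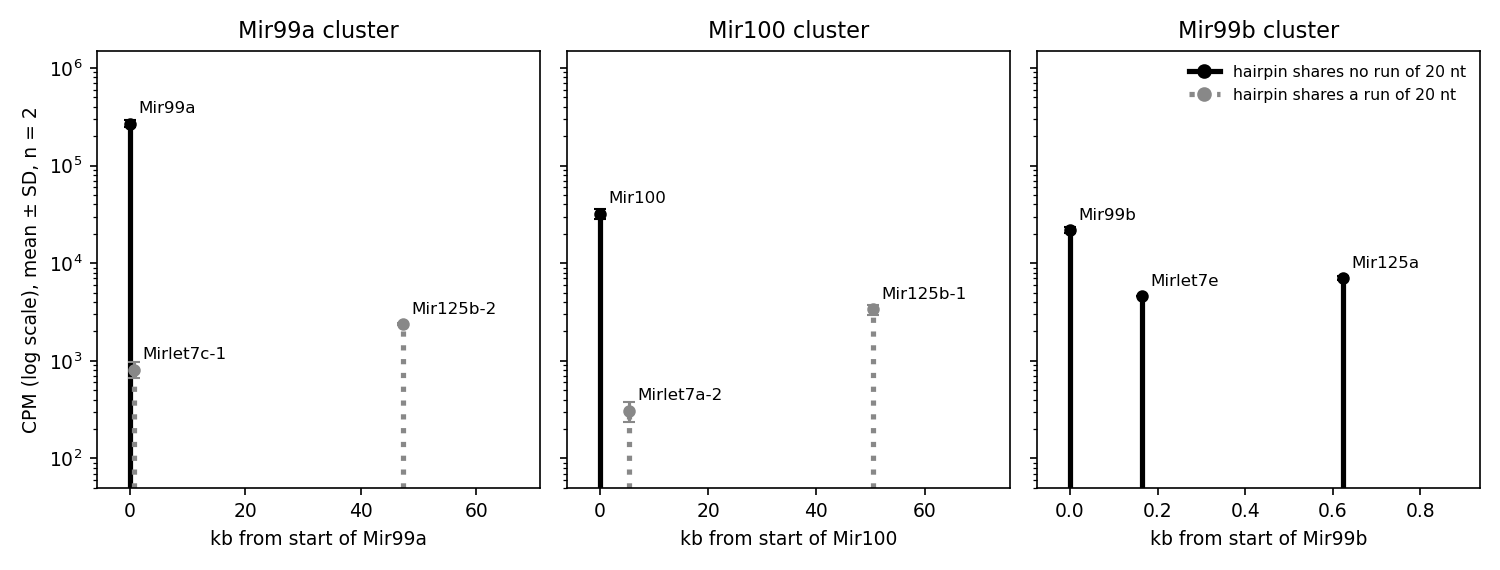
Level (CPM, log scale, mean ± SD, n = 2) of each locus against its distance in kb from the start of the miR-99/100 locus, 1 panel per cluster. Dotted grey stems mark the 4 neighbours whose hairpins share a run of 20 nt with another counted hairpin, and Mir99a, Mir100 and Mir99b are the highest points of their panels.

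The miR-10 miRNAs of the Hox clusters are the closest relatives in sequence outside the family, and are known for their high level in hindbrain, spinal cord and trunk. Their seed differs from that of the family, as shown in capitals.
miR-10a-5p: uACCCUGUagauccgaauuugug
miR-10b-5p: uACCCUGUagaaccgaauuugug
From base 6 of miR-100-5p and base 7 of miR-10a-5p, 11 bases were identical, and miR-99b-5p and miR-10b-5p had a run of 10 in the same place. Mir10a had 104 CPM in pup 3 and 108 CPM in pup 1, and Mir10b had 150 CPM in pup 3 and 120 CPM in pup 1. Mir100 stood 336-fold above Mir10a in pup 3 and 276-fold above it in pup 1. Against Mir10b, Mir100 stood 232-fold higher in pup 3 and 248-fold higher in pup 1.

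**Figure D3:**
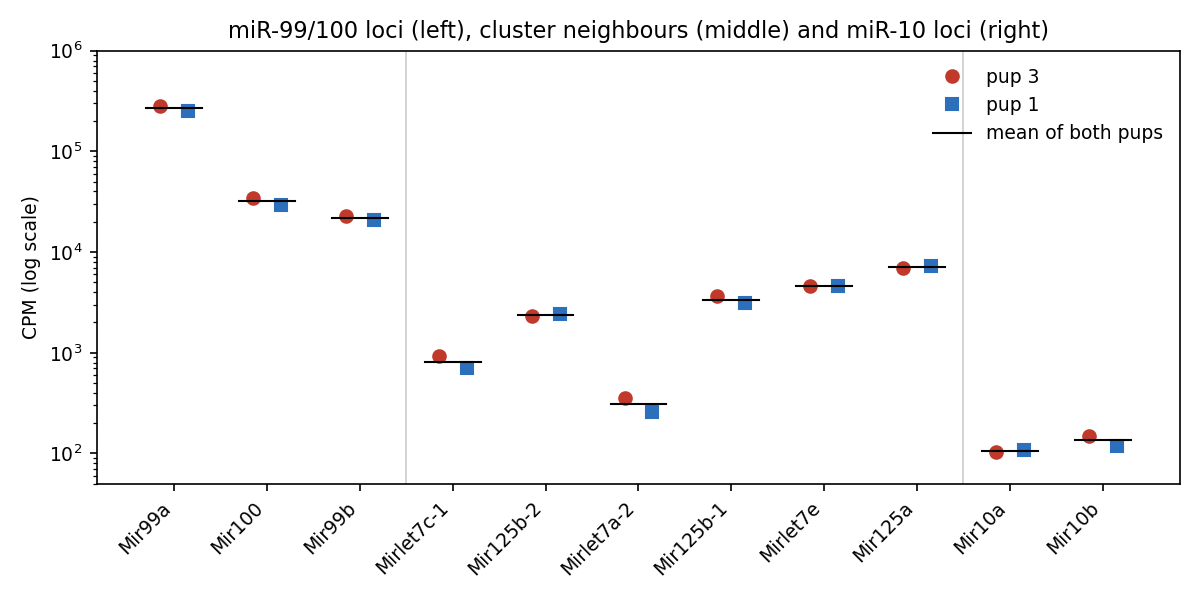
CPM (log scale) of the 3 miR-99/100 loci, their 6 cluster neighbours and the 2 miR-10 loci, with 1 point per pup and a line at the mean of both. The points of a locus lie close together compared with the distance between Mir99a and every other locus shown.

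All 3 members held a larger share of the counts in pup 3 than in pup 1. The log2 ratio of pup 3 over pup 1 was 0.15 for Mir99a (exact interval 0.150 to 0.160), 0.23 for Mir100 (0.218 to 0.246) and 0.13 for Mir99b (0.114 to 0.148). Each side is 1 animal, so a two-sided Fisher's exact test (counts of the locus and of all other loci, Benjamini-Hochberg adjusted over 400 loci) compares these libraries and covers counting error only. The adjusted exact p was 7.56e-242 for Mir100 and 2.07e-52 for Mir99b, and for Mir99a it was smaller than a double-precision number can hold. At this depth the test called 56.5% of the 400 loci in either direction, 10.2% as higher in pup 3 and 46.2% as lower. The family's median log2 ratio was 0.15, against −0.31 over all tested loci.

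The scale changed the size of these ratios. Their sign could not change, since the other scales add a positive amount to ratios already above 0. Against library totals, TMM library sizes raise the log2 ratio of an abundant locus by 0.25 and DESeq2 size factors by 0.31, and that of a locus near the pseudocount by less. With size factors the ratios were 0.47 for Mir99a, 0.55 for Mir100 and 0.44 for Mir99b. All 3 were called higher by an exact binomial test on either scale, while none was lower. With TMM sizes 46.5% of all tested loci were called, 20.5% as higher and 26% as lower. With size factors 45.2% were called, 24.5% as higher and 20.8% as lower. Of 331 loci with at least 10 counts in both pups, 260 lay at least as far from a ratio of 0 as Mir99a did with library totals, and 80 lay at least as far as Mir99a from the median of tested loci. For Mir100 these numbers were 237 and 64, and for Mir99b 268 and 86.

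**Figure D4:**
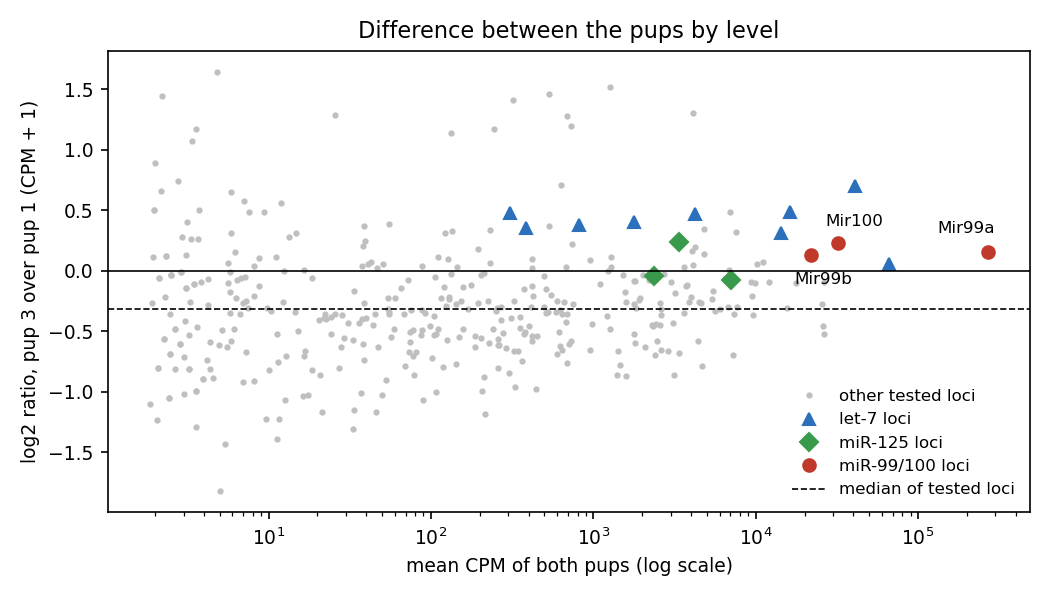
Log2 ratio of pup 3 over pup 1 (CPM + 1) against mean CPM (log scale) for the 400 tested loci, with a dashed line at their median of −0.31. The miR-99/100 loci lie just above 0 at 0.13 to 0.23, and the 9 let-7 loci lie between 0.06 and 0.70.

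Among the linked families, the let-7 loci with a row were also higher in pup 3. All 9 loci named let-7 with a row were called higher with library totals, against 10.2% of all tested loci. Their median log2 ratio was 0.41, and the highest in level were Mirlet7g (0.06) and Mirlet7i (0.70). Together they held 16.2% of the counts in pup 3 and 12.9% in pup 1. The 9 loci are not independent, since some of them neighbour each other within 10 kb. Mirlet7e, which has no row of its own and entered no test, had a log2 ratio of 0.00056. With Mirlet7e added, the miR-99/100 family had 2.06 times the counts of let-7 in pup 3 and 2.29 times in pup 1. Several let-7 miRNAs have copies whose reads are not assigned, so this proportion is uncertain. The 3 miR-125 loci were mixed. Mir125b-1 was higher in pup 3 (0.24, adjusted exact p = 2.19e-26), Mir125a was lower with library totals (−0.07, adjusted exact p = 3.19e-06) but higher with size factors (0.24), and Mir125b-2 did not pass (−0.04, adjusted exact p = 0.189) but was higher with size factors (0.27). The family had 26.6 times the counts of the miR-125 loci in pup 3 and 24.0 times in pup 1. This fold is uncertain too. The hairpins of Mir125b-1 and Mir125b-2 share a run of 24 nt, and full-length reads of miR-125b-5p were assigned to neither.

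Within the clusters the log2 ratio of member to neighbour differed between pup 3 and pup 1 by at most 0.24 in size. For Mir100 and Mir125b-1 the difference was −0.0039, the smallest of the 6 member and neighbour pairs. The ratios of Mir99a to Mirlet7c-1 and of Mir100 to Mirlet7a-2 were lower in pup 3, with differences of −0.23 and −0.24. Those of Mir99a to Mir125b-2 and of Mir99b to Mir125a were higher in pup 3 by 0.19 and 0.20, and that of Mir99b to Mirlet7e by 0.13. The median absolute difference over the 90 neighbouring pairs was 0.198, which 3 of these 6 pairs exceeded.

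The loci most like each member were sought among 93 others with a mean share of at least 0.1%, by the distance between log2 ratios over the 2 samples. For Mir100 the nearest was its own cluster neighbour Mir125b-1 (0.24, a distance of 0.0039), followed by Mir126a (0.22) and Mir16-1 (0.20). For Mir99a they were Mir128-2 (0.16), Mir93 (0.14) and Mir16-1. For Mir99b they were Mir93, Mir92-1 (0.11) and Mir128-2. With 2 samples many loci lie close by this measure, so the order is a description only.

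Markers of other cell types differed between the pups as well. Of 6 epithelial loci, 5 were called higher in pup 3, against 10.2% of all tested loci with library totals. These 5 are not independent, since Mir429, Mir200a and Mir200b neighbour each other within 10 kb, as do Mir141 and Mir200c. The other locus, Mir205, was not called (−0.38). The 6 loci summed to 0.935% in pup 3 and 0.370% in pup 1, with none at 0. The 3 vessel loci, known from endothelium and smooth muscle, summed to 3.94% in pup 3 and 3.50% in pup 1, with none at 0. With library totals Mir126a was higher and Mir143 and Mir145a were lower. With size factors Mir143 was instead called higher (0.09) and Mir145a was not called. With TMM sizes Mir126a was called higher, and neither Mir143 nor Mir145a was called. The 6 neuronal loci summed to 3.90% in pup 3 and 4.29% in pup 1, with none at 0. Of the 4 that could be tested, Mir128-1 and Mir128-2 were higher and Mir137 was lower (−0.28) with library totals. With size factors Mir137 was instead called higher (0.04), while with TMM sizes it was still called lower (−0.03). Of 4 progenitor loci 3 had a row, and these summed to 0.284% in pup 3 and 0.401% in pup 1, with none at 0. Among them Mir92b was lower in pup 3 (−0.67 with library totals, −0.35 with size factors) and Mir9-3 was higher (0.37 with library totals). The remaining locus, Mir9-2, had only 2 counts in pup 3 and 8 in pup 1 and was not called (−1.10). The part of these cell types in the family's difference was not tested, and in whole tissue more cells of a type and more RNA per cell cannot be told apart.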

How the data were processed

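The authors deposited raw read counts per miRNA locus for each library, with no normalization, on assembly mm10 per the labels and with annotation release M4 per the deposited list of files. For the aligner and the counter no name is given in the sources used. Gene-strand counts were used, and the 4 rows that name no gene were left out of totals (unmapped reads were 12.3% of all reads in pup 3 and 13.4% in pup 1, and reads outside the counted loci 2.27% in pup 3 and 3.23% in pup 1). Names and positions came from GENCODE M21 on the same assembly, by identifier: 1894 of 1973 rows matched. Sequences came from RefSeq (GRCm38.p6), and shared hairpin runs from GENCODE transcript sequences.

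Fisher's exact test was run on every locus whose counts in both pups summed to 10 or more, with a Benjamini-Hochberg threshold of 0.05. A single group gives edgeR's quasi-likelihood test no contrast, so edgeR and DESeq2 gave only library scales. Log2 ratios between pups are of CPM + 1. Named loci were the members, their cluster neighbours, miR-10 loci, any other locus with the family seed (none), the 2 highest let-7 loci, and for each member the 3 loci nearest in log2 ratio; loci next in rank and markers are named for reference. The members, lists and rules were chosen with earlier results of these data known. Library scales came from edgeR 4.0.16 and DESeq2 1.42.0 in R 4.3.3. Tests used scipy 1.17.1 with pandas 2.3.3 and numpy 2.4.6 under Python 3.11.15, and plots matplotlib 3.10.9. Alternatives were other totals, other library scales, filters and pseudocounts, and leaving out a pup.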

Additional observations from a re-analysis of the deposited data

Results flagged for a closer look

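Mirlet7e, the neighbour of Mir99b, has no row among the gene-strand counts. The strand opposite Gm25927, where it lies, held 4586 CPM in the mean of both pups, far above the 3 counts that a count of 0 allows, and this column entered no test.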

How the results depend on the processing

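Of 83 alternatives to 18 results, 69 stayed within the spread between the pups, on the same side of the threshold or within 1.5 times the count, and none reversed. Part of this was fixed in advance. With 2 animals, leaving out a pup always stays within their SD, and neither a share nor a count of loci can reverse. No member has a count on the opposite strand, and counting both strands left the ratios between loci almost unchanged. Filters and pseudocounts can hardly move the pup ratio of loci this abundant. The other library scales only raise the pup ratios of the members, which were already above 0. The number that stayed is therefore no measure of robustness. With all reads of the tables as the total, shares were 11.1% for Mir99a, 1.33% for Mir100, 0.900% for Mir99b and 13.3% for the family. With assigned plus multiply mapping reads as the total, an alternative chosen after seeing the data, they were 13.2%, 1.57%, 1.07% and 15.8% in the same order. Without Mir99a in the total, Mir100 held 4.42% and Mir99b 2.99%. Loci called higher in pup 3 numbered 82 with TMM sizes and 98 with DESeq2 size factors, against 41 with library totals, and loci called lower 104 and 83, against 185. Leaving out a replicate gave 25.5 to 28.4% for Mir99a, 2.97 to 3.49% for Mir100, 2.08 to 2.28% for Mir99b and 30.5 to 34.1% for the family, and left no contrast for the test between pups. No paired analysis was possible because the series holds a single group. With 2 animals, a difference between them shows only the spread of the group.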
